A study of Mus musculus with 4 samples.

Results

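Amino acid transporters of the plasma membrane were followed in ribosome profiling (Ribo-seq) of leptotene and zygotene spermatocytes, the germ cells of early meiotic prophase, with and without *Eef1g*. *Eef1g* encodes eEF1G, a subunit of the translation elongation factor 1 complex, which delivers aminoacyl-tRNA to the ribosome. The genes were the 10 symbols *Slc7a1*, *Slc7a3*, *Slc7a5*, *Slc7a6*, *Slc7a11*, *Slc3a2*, *Slc1a4*, *Slc1a5*, *Slc38a1* and *Slc38a2*, chosen by symbol among the 11598 genes of the deposited table. The table holds genes with at least 10 reads over the 4 libraries, and 8 of the 10 had a row. The lowest total among them was that of *Slc7a3*, with 1 read in control and 31 in *Eef1g*-cKO. *Slc7a11*, the cystine and glutamate exchanger (GRCm38.p6 chr3:50364936-50499087), and *Slc38a1*, a sodium-coupled carrier of glutamine and other neutral amino acids (chr15:96571418-96643438), were not analysed here. The set was selected on a table whose results were already known, so the p-values of single transporters describe these libraries and are not independent evidence.

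Cells were sorted by FACS from mouse testes at 12 days postpartum (dpp), and each genotype had 2 libraries. In *Eef1g*-cKO mice, *Stra8*-GFPCre removes *Eef1g* exons in male germ cells from the spermatogonial stage onward, so somatic cells of the testis keep the gene. Controls were littermates that the labels call wild type. Whether they carried the floxed allele or Cre, and how many animals went into a library, was not given in the sources used here. The p-values therefore measure the spread between these libraries, which may be partly technical.

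Amino acids enter cells through families of solute carriers that differ in substrate and in driving force. System y+ carriers (CAT proteins) take up arginine, lysine and ornithine. Light chains of the SLC7 family pair with the heavy chain 4F2hc, which carries them to the cell surface, where they exchange amino acids. ASCT proteins exchange alanine, serine, cysteine and, in the case of ASCT2, glutamine, and SNAT proteins take up small neutral amino acids together with sodium. Several of these genes are known targets of ATF4, the transcription factor that is translated when amino acids are short, and amino acids held by cells also feed the lysosomal switch of mTORC1.

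The values are FPKM of ribosome-protected fragments (RPFs), that is reads scaled to a gene length of 1 kb and to 1000000 reads on genes, and read numbers are those recovered from the normalized counts. The libraries held 2479504 and 1384282 reads on genes in control against 223906 and 407979 in those of *Eef1g*-cKO, 6.11 times as many reads in control. On a gene of 1 kb, a single read was worth 0.403 and 0.722 FPKM in control against 4.47 and 2.45 FPKM in *Eef1g*-cKO. *Eef1g* itself had 107 and 58 reads in control against 0 and 4 in *Eef1g*-cKO, or 27.6 and 26.8 FPKM against 0 and 6.26 FPKM. Of 12 leptotene/zygotene markers, 11 were in the table and had reads in all 4 libraries, with summed levels of 1973 and 1554 FPKM in control against 4792 and 4346 FPKM in *Eef1g*-cKO. A lower value can mean fewer cells of a type or fewer RPFs per cell, and these cannot be told apart in a bulk sample.

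The transporters did not move as a block. On the log2(FPKM + 1) scale *Slc7a3* and *Slc1a4* rose in *Eef1g*-cKO, *Slc1a5* and *Slc7a5* were lower, and the most abundant gene, *Slc3a2*, was at nearly the same level in both genotypes. All 8 genes had a mean of at least 1 FPKM and were tested, *Slc7a3* only through its *Eef1g*-cKO values. By limma, with a call set at p below 0.05 and an absolute log2 fold change above 1, 2 genes were called increased and 1 decreased by unadjusted p. These calls stand beside 7.32% of all 10475 tested genes called increased and 16.3% called decreased by the same rule. By adjusted p 2 were called increased and 0 decreased, beside 2.87% and 4.97% of all tested genes. In 4 genes the *Eef1g*-cKO libraries were both higher than either control library, and in 3 both were lower, whereas 24.6% and 37.7% of all tested genes did so. The median log2 fold change of the 8 genes was 0.14 against -0.23 for all tested genes.

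**Figure D1:**
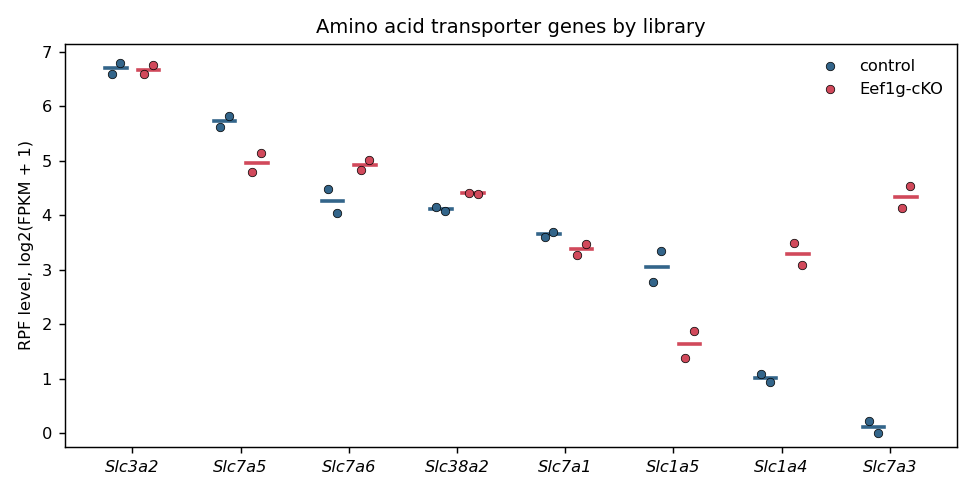
RPF level of each amino acid transporter gene in each library, as log2(FPKM + 1), with genes ordered by their mean in control. Points are the 2 libraries of each genotype and bars their means; *Slc7a3* sits near 0 in control, and at 16.6 and 22.3 FPKM in *Eef1g*-cKO, whereas the points of *Slc3a2* overlap between genotypes.

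Summed over the 8 genes, the transporters took 711 and 770.1 of every 1000000 reads in the control libraries against 719 and 814 in those of *Eef1g*-cKO. The groups overlapped in this sum. *Slc3a2* alone held 47.6% and 50.4% of the summed FPKM in control against 46.0% and 45.6% in *Eef1g*-cKO.

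**Figure D2:**
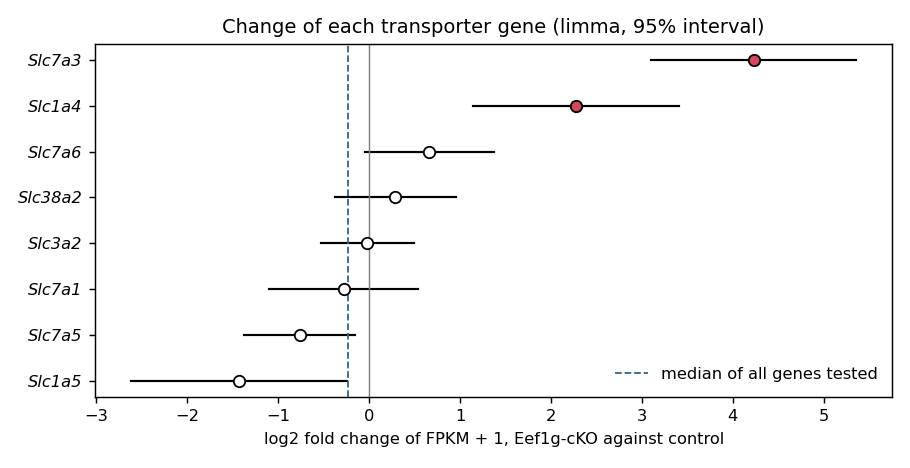
Log2 fold change of FPKM + 1 in *Eef1g*-cKO against control for the 8 transporter genes, with 95% intervals from limma. Filled points passed the adjusted p and a log2 fold change above 1; these were *Slc7a3* at 4.23 and *Slc1a4* at 2.27. The dashed line is the median of all tested genes at -0.23.

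Among the cationic transporters, *Slc7a3* (chrX:101079146-101090452 in GRCm38.p6) encodes CAT3, which takes up arginine and lysine and is best known from the brain. Its reads numbered 1 and 0 in the control libraries against 9 and 22 reads in those of *Eef1g*-cKO, although the latter were the shallower ones. Its level was 0.167 and 0 FPKM in control against 16.6 and 22.3 FPKM in *Eef1g*-cKO. The groups were therefore far apart, and the control level rested on a single read. The log2 fold change was 4.23 with a standard error of 0.46 (95% interval 3.10 to 5.36, adjusted p = 0.0225). With 1 read in control, this fitted value depends on the pseudocount and is no bound. Per 1000000 reads counted, reads of *Slc7a3* were 189.6 times as frequent in *Eef1g*-cKO as in control, with an exact 95% interval from 31.6 to 7726 that covers counting error only. The log2 fold change ran from 2.26 with a pseudocount of 5 to 6.89 with a pseudocount of 0.1, and was 7.10 by edgeR (adjusted p = 1.95e-05) and 7.57 by DESeq2 (adjusted p = 4.04e-05).

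*Slc7a1* (chr5:148327410-148399904) encodes CAT1, the arginine and lysine transporter found in most tissues. It had 201 and 120 reads in control against 14 and 30 reads in *Eef1g*-cKO, or 11.2 and 12.0 FPKM against 8.64 and 10.2 FPKM. Both *Eef1g*-cKO values lay below both control values, but the log2 fold change of -0.28 did not pass the test (95% interval -1.10 to 0.54, adjusted p = 0.600). *Slc7a2*, which encodes CAT2 and was not among the 10 genes, had 5.03 and 4.96 FPKM in control against 2.27 and 0.936 FPKM in *Eef1g*-cKO, the latter from 4 and 3 reads (log2 fold change -1.25, adjusted p = 0.164). The 3 CAT genes together had 16.4 and 16.9 FPKM in control against 27.5 and 33.4 FPKM in *Eef1g*-cKO. Of these sums *Slc7a1* made up 68.3% and 70.7% in control against 31.4% and 30.4% in *Eef1g*-cKO. *Slc7a3* made up 1.02% and 0% in control against 60.4% and 66.8% in *Eef1g*-cKO, the largest share of the 3 there. This order depends on the length used. Per kilobase of coding sequence, a scale chosen after seeing the data, *Slc7a3* stood at 21.7 and 29.1 in *Eef1g*-cKO, below *Slc7a1* at 33.5 and 39.4.

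**Figure D3:**
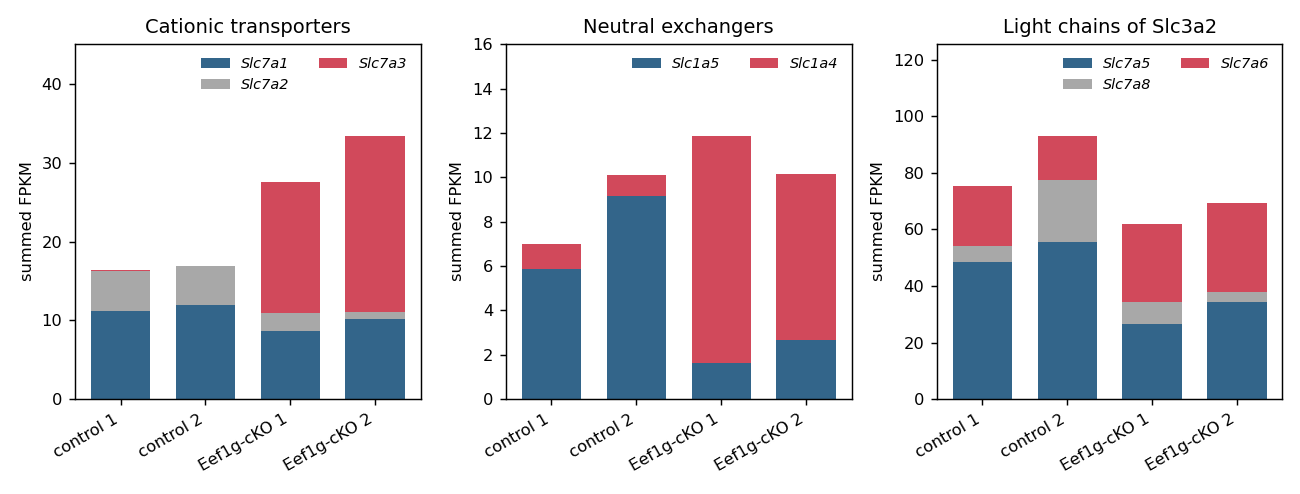
Summed FPKM, per kilobase of gene length, of related transporter genes in each of the 4 libraries, with bars starting at 0 and stacked by gene, for the cationic transporters, the neutral exchangers and the light chains of *Slc3a2*. *Slc7a3* is nearly absent from the control bars and makes up 60.4% and 66.8% of the cationic bars in *Eef1g*-cKO, and *Slc1a4* takes the place of *Slc1a5* as the larger part of the neutral exchanger bars.

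The neutral exchangers lay on opposite sides of 0. *Slc1a4* (chr11:20302180-20332713) encodes ASCT1, an exchanger of alanine, serine, cysteine and threonine. It had 11 and 5 reads in control against 9 and 12 reads in *Eef1g*-cKO, or 1.13 and 0.920 FPKM against 10.2 and 7.49 FPKM. The control libraries agreed closely and both *Eef1g*-cKO libraries stood well above them. The log2 fold change was 2.27 with a standard error of 0.46 (95% interval 1.14 to 3.41, adjusted p = 0.0457), and the ratio of reads per 1000000 was 8.03 with an exact 95% interval from 3.99 to 16.5 for counting error.

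The adjusted calls of *Slc7a3* and *Slc1a4* rested on having both control libraries. Without control replicate 1 the adjusted p was 0.168 for *Slc7a3* and 0.244 for *Slc1a4*, and without control replicate 2 it was 0.208 and 0.304. In these fits 0 genes of the whole table passed, and the log2 fold changes were 4.34 and 4.12 for *Slc7a3* and 2.35 and 2.20 for *Slc1a4*. The adjusted p also missed 0.05 with a pseudocount of 0.1, at 0.0540 for *Slc7a3* and 0.0645 for *Slc1a4*, and without a variance trend, at 0.0561 and 0.0627, as did that of *Slc1a4* without a filter, at 0.0548. The adjusted p of *Slc1a4* was 0.00255 by edgeR and 0.00456 by DESeq2.

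*Slc1a5* (chr7:16781334-16798274) encodes ASCT2, the glutamine exchanger of many dividing cells. It had 40 and 35 reads in control against 1 and 3 reads in *Eef1g*-cKO, or 5.85 and 9.17 FPKM against 1.62 and 2.67 FPKM. Both *Eef1g*-cKO libraries lay below both control libraries, and their levels rested on 4 reads in all. The log2 fold change of -1.43 (standard error 0.48, 95% interval -2.61 to -0.24) passed at unadjusted p = 0.0258 and not at adjusted p = 0.113. Without *Eef1g*-cKO replicate 2 the adjusted p was 0.0430. The unadjusted p was 0.0610 without control replicate 1, 0.122 without control replicate 2, 0.0522 by edgeR and 0.143 by DESeq2, so the call was lost in each, and with a pseudocount of 5 the log2 fold change was -0.80. Reads per 1000000 were 3.07 times as frequent in control as in *Eef1g*-cKO, with an exact 95% interval from 1.15 to 11.5.

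Both ASCT genes together had 6.98 and 10.1 FPKM in control against 11.9 and 10.2 FPKM in *Eef1g*-cKO. *Slc1a4* made up 16.2% and 9.12% of this sum in control against 86.3% and 73.8% in *Eef1g*-cKO. The order of the pair was thus opposite in the genotypes, in each of the 4 libraries. *Slc1a5* was 5.18 and 9.96 times *Slc1a4* in the control libraries, and *Slc1a4* was 6.32 and 2.81 times *Slc1a5* in the *Eef1g*-cKO libraries.

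Because *Slc1a4* was among the genes that rose, its promoter was searched for TGATGNAA, the letters of the element bound by C/EBP and ATF factors, on both strands. The RefSeq promoters of GRCm38.p6, from 250 bases before to 50 bases after each start site, covered 6 of the 10 genes, *Slc7a11*, *Slc7a1*, *Slc7a6*, *Slc1a4*, *Slc38a2* and *Slc3a2*. *Slc7a3*, which also rose, was not covered and could not be searched. The letters occurred in the promoters of *Slc1a4* and *Slc7a11*, and in 1304 of all 32851 promoters, or 3.97%. In *Slc1a4* they lay on the strand opposite to the gene and spanned the start site, from position -4 relative to it. In *Slc7a11* they occurred on the gene's strand at position -66, with a second match on the opposite strand at position -47. The windows are shown 5′ to 3′ on the strand that carries the match, with the matching letters in capitals, at chr11:20332699-20332728 on the plus strand for *Slc1a4*, and at chr3:50443661-50443690 on the minus strand for *Slc7a11*.
Slc1a4: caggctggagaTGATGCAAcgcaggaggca
Slc7a11: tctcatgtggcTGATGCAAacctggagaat
The same letters stand in capitals in both windows, and the bases on either side differ. A second search, for TGACNNNGC, the antioxidant response element, matched *Slc7a1*, *Slc7a6* and *Slc38a2*, and 12.4% of all promoters. The searched letters do not overlap in these promoters between the elements, since no gene of the 6 held both. Such a match describes letters in a window and not binding.

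*Slc3a2* (chr19:8706882-8723369) encodes 4F2hc, also called CD98 heavy chain, the partner that light chains need at the cell surface. It had 698 and 454 reads in control against 63 and 130 reads in *Eef1g*-cKO, or 95.2 and 111 FPKM against 95.1 and 108 FPKM. The values of the genotypes overlapped, and the log2 fold change was -0.02 (95% interval -0.53 to 0.49, adjusted p = 0.954). Its sign turned under median centring (0.19), under edgeR (0.07) and under DESeq2 (0.05), and the ratio of reads per 1000000 was 1.02 with an exact 95% interval from 0.875 to 1.19.

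The light chains were less even. *Slc7a5* (chr8:121881146-121907686) encodes LAT1, which exchanges large neutral amino acids such as leucine for glutamine. It had 422 and 270 reads in control against 21 and 49 reads in *Eef1g*-cKO, or 48.4 and 55.5 FPKM against 26.7 and 34.2 FPKM. Both *Eef1g*-cKO libraries were below both control libraries. The log2 fold change was -0.76 (95% interval -1.37 to -0.15), with unadjusted p = 0.0228 and adjusted p = 0.106, and it did not reach an absolute value of 1. *Slc7a6* (chr8:106168219-106198714) encodes y+LAT2, which exports arginine in exchange for neutral amino acids. It had 198 and 80 reads in control against 23 and 48 in *Eef1g*-cKO, or 21.4 and 15.5 FPKM against 27.5 and 31.5 FPKM. Both *Eef1g*-cKO values were the higher ones, but the log2 fold change of 0.66 did not pass the test (95% interval -0.04 to 1.37, adjusted p = 0.182).

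Relative to the heavy chain, *Slc7a5* stood at 0.509 and 0.501 of the *Slc3a2* level in control, and at 0.281 and 0.317 in *Eef1g*-cKO. *Slc7a6* stood at 0.225 and 0.140 in control, and at 0.290 and 0.293 in *Eef1g*-cKO. *Slc7a5* was 2.26 and 3.58 times *Slc7a6* in control, whereas the pair stood at a ratio of 0.969 and 1.08 in *Eef1g*-cKO. *Slc7a8*, the gene for the light chain LAT2 and not among the 10 genes, differed between the control libraries, with 5.70 and 22.03 FPKM, against 7.75 and 3.65 FPKM in *Eef1g*-cKO (adjusted p = 0.380). With all 3 light chains summed, their level over that of *Slc3a2* was 0.794 and 0.839 in control against 0.652 and 0.644 in *Eef1g*-cKO, so the ranges did not overlap. These ratios have no test of their own.

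*Slc38a2* (chr15:96687392-96699728) encodes SNAT2, a sodium-coupled carrier of small neutral amino acids that cells are known to raise when amino acids are short. It had 192 and 102 reads in control against 21 and 38 reads in *Eef1g*-cKO, or 16.7 and 15.9 FPKM against 20.3 and 20.1 FPKM. Both *Eef1g*-cKO values lay above both control values by a small margin. The log2 fold change of 0.29 did not pass the test (95% interval -0.38 to 0.96, adjusted p = 0.497).

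Within control the levels per kilobase of gene length ran from *Slc3a2* at 103 ± 11.1 FPKM (SD, n = 2), over *Slc7a5* at 52.0 ± 5.002 FPKM, *Slc7a6* at 18.5 ± 4.18 FPKM, *Slc38a2* at 16.3 ± 0.573 FPKM, *Slc7a1* at 11.6 ± 0.549 FPKM and *Slc1a5* at 7.51 ± 2.35 FPKM to *Slc1a4* at 1.03 ± 0.148 FPKM and *Slc7a3*. Of these neighbours *Slc7a6* and *Slc38a2* overlapped in their libraries. In *Eef1g*-cKO the order was *Slc3a2* at 101 ± 8.91 FPKM, *Slc7a5* at 30.4 ± 5.30 FPKM, *Slc7a6* at 29.5 ± 2.83 FPKM, *Slc38a2* at 20.2 ± 0.0989 FPKM, *Slc7a3* at 19.5 ± 4.02 FPKM, *Slc7a1* at 9.40 ± 1.08 FPKM, *Slc1a4* at 8.87 ± 1.94 FPKM and *Slc1a5* at 2.14 ± 0.740 FPKM. Here *Slc7a5* overlapped with *Slc7a6*, *Slc38a2* with *Slc7a3*, and *Slc7a1* with *Slc1a4*. On this scale *Slc7a3* stood last in control and beside *Slc38a2* in *Eef1g*-cKO, where *Slc1a5* stood last.

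Other amino acid transporters, apart from lysosomal ones, were read from a list of 38 genes, of which 12 were in the table and 8 were tested. By adjusted p limma called 0 of them, beside 2.87% increased and 4.97% decreased of all tested genes. By unadjusted p it called 1 decreased, *Slc7a2*, beside 16.3%. By adjusted p edgeR with TMM called 1 increased and 1 decreased of 6 tested, beside 705 and 904 of 8056 genes. DESeq2 called 1 increased and 0 decreased of 12, beside 502 and 451 of 11598 genes. The median log2 fold change of the 8 genes by limma was -0.33. *Slc38a10*, a member of the SNAT family, had 23.6 and 21.6 FPKM in control against 41.3 and 50.3 FPKM in *Eef1g*-cKO (log2 fold change 0.98, adjusted p = 0.0639). *Slc6a9*, which encodes the glycine transporter GlyT1, had 8.14 and 8.17 FPKM in control against 5.46 and 6.74 FPKM in *Eef1g*-cKO (adjusted p = 0.536).

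Of 173 other genes with an Slc symbol, 144 were tested, and limma called 3 increased and 3 decreased by adjusted p, beside 2.87% and 4.97% of all tested genes, with a median log2 fold change of -0.26. At most 3 reads in each *Eef1g*-cKO library were counted for 55 of the 144. The increased genes were *Slc35a2*, the Golgi carrier of UDP-galactose (log2 fold change 1.77), *Slc16a1*, the lactate and pyruvate carrier MCT1 (1.16), and *Slc20a1*, the phosphate carrier PiT1 (1.14). The decreased genes were *Slc12a7*, the potassium and chloride cotransporter KCC4 (log2 fold change -2.13), *Slc27a3* of the fatty acid transport protein family and *Slc39a11* of the ZIP zinc carrier family. The latter pair had 0 reads in both *Eef1g*-cKO libraries, against 106 and 34 reads of *Slc27a3* and 53 and 17 reads of *Slc39a11* in control. By limma the adjusted p of these calls ran from 0.0283 for *Slc27a3* to 0.0499 for *Slc20a1*. All of them were lost with a pseudocount of 0.1 and without a variance trend. Those of *Slc35a2*, *Slc20a1* and *Slc12a7* were also lost without a filter, and that of *Slc39a11* under DESeq2 (adjusted p = 0.0660). Among the lowest that did not pass, *Slc25a4*, the mitochondrial ADP and ATP carrier, had 22.3 and 20.3 FPKM in control against 0 and 8.89 FPKM in *Eef1g*-cKO (adjusted p = 0.135). Among the highest, *Slc4a7*, a sodium bicarbonate cotransporter, had 6.60 and 4.79 FPKM in control against 21.8 and 15.6 FPKM in *Eef1g*-cKO (adjusted p = 0.0590).

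The sensing genes were lysosomal transporters and genes of amino acid sensing at or upstream of mTORC1. This list held 39 genes, 36 of them in the table and 35 tested. By adjusted p 0 were called increased and 1 decreased, beside 2.87% and 4.97% of all tested genes, and by unadjusted p 1 and 5, beside 7.32% and 16.3%. By adjusted p, edgeR with TMM called 3 increased and 3 decreased of 29 tested, beside 705 and 904 of 8056 genes. DESeq2 called 1 increased and 0 decreased of 36, beside 502 and 451 of 11598 genes. The median log2 fold change of the sensing genes by limma was -0.20. *Lamtor4*, a subunit of the Ragulator complex that anchors Rag GTPases at the lysosome, fell from 55.2 and 71.7 FPKM in control to 10.2 and 16.8 FPKM in *Eef1g*-cKO (log2 fold change -2.18, adjusted p = 0.0307), the latter from 2 and 6 reads. Its adjusted p was 0.0518 by DESeq2, 0.0540 with a pseudocount of 0.1 and 0.0677 without a variance trend. Without control replicate 1 or 2 its log2 fold change was -2.37 and -1.99. *Gatsl3*, the table's symbol for the arginine sensor CASTOR1, had 22 and 36 reads in control against 0 and 1 in *Eef1g*-cKO (adjusted p = 0.0697). *Nprl3*, a subunit of GATOR1, which restrains mTORC1, had 2.26 and 2.48 FPKM in control against 6.97 and 12.2 FPKM in *Eef1g*-cKO (adjusted p = 0.0837). *Fnip1*, the folliculin partner, had 26.3 and 18.3 FPKM in control against 39.8 and 46.0 FPKM in *Eef1g*-cKO (adjusted p = 0.0919).

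Genes of the response to amino acid shortage around ATF4 comprised 15 kinases and regulators, of which 13 were tested, and 23 target enzymes and effectors, of which 22 were tested. Among the regulators limma called 0 by adjusted p, beside 2.87% increased and 4.97% decreased of all tested genes. By unadjusted p, where 16.3% of all tested genes were called decreased, limma called 2 regulators decreased. These were *Atf3*, with 34 and 24 reads in control against 0 and 1 in *Eef1g*-cKO (adjusted p = 0.0540), and *Cebpb*, with 15 and 3 reads and then 0 and 0 (adjusted p = 0.107), both stress-inducible transcription factors. *Atf4* had 32.2 and 38.9 FPKM in control against 51.7 and 42.5 FPKM in *Eef1g*-cKO (log2 fold change 0.40, adjusted p = 0.317). Among the regulators that averaged 5 FPKM or more, the outermost log2 fold changes were those of *Ppp1r15a*, a subunit of the eIF2α phosphatase (-0.49, adjusted p = 0.388), *Eif2ak3*, the ER stress kinase PERK (-0.39, adjusted p = 0.646), *Eif2s1*, which encodes eIF2α (0.49, adjusted p = 0.256), and *Ddit3*, which encodes CHOP (0.53, adjusted p = 0.628). *Eif2ak3* had 3 and 15 reads in *Eef1g*-cKO and *Ddit3* 5 and 2.

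Among the targets, 2 were called increased and 2 decreased by adjusted p, beside 2.87% and 4.97% of all tested genes, and the median log2 fold change was 0.14. For regulators and targets together, DESeq2 and limma after median centring each called 3 increased and 0 decreased. Decreased calls remained in other fits, with 3 increased and 2 decreased by edgeR with TMM, and 2 and 3 by limma with a pseudocount of 5. Of all genes, DESeq2 called 502 increased and 451 decreased of 11598, and edgeR with TMM 705 and 904 of 8056. Limma called 521 and 383 of 10475 after centring, and 354 and 706 with a pseudocount of 5. *Asns*, asparagine synthetase, rose from 25.7 and 41.2 FPKM in control to 227 and 178 FPKM in *Eef1g*-cKO (log2 fold change 2.59, adjusted p = 0.0225). *Herpud1*, a component of ER-associated degradation, rose from 4.53 and 5.41 FPKM to 103 and 70.7 FPKM (log2 fold change 3.86, adjusted p = 0.0212). *Phgdh* and *Psph*, which catalyse the first and the last step of serine synthesis, were the decreased calls. *Psph* had 34.1 and 32.4 FPKM in control against 11.6 and 14.4 FPKM in *Eef1g*-cKO (log2 fold change -1.299, adjusted p = 0.0479). *Phgdh* had 34 and 34 reads in control against 0 and 1 read in *Eef1g*-cKO (adjusted p = 0.0498). Both decreased calls were lost under DESeq2 (adjusted p = 0.169 for *Phgdh* and 0.233 for *Psph*) and median centring (0.0546 and 0.0624), and also without a filter, without a variance trend and with a pseudocount of 0.1. The increased call of *Asns* was lost by limma with a pseudocount of 0.1 (adjusted p = 0.0537) and without a variance trend (0.0633). That of *Herpud1* was lost without a variance trend (adjusted p = 0.0561). Fits without control replicate 1 or 2 keep a single control library, so only their log2 fold changes are given. These were 2.26 and 2.92 for *Asns*, 3.75 and 3.96 for *Herpud1*, -3.22 and -2.45 for *Phgdh*, and -1.26 and -1.33 for *Psph*.

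**Figure D4:**
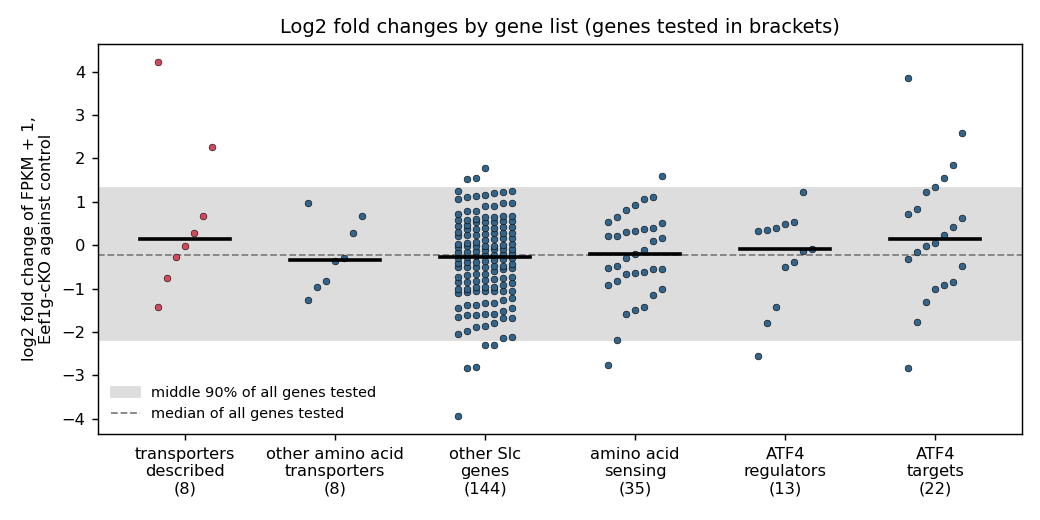
Log2 fold change of FPKM + 1 in *Eef1g*-cKO against control for each tested gene of 6 lists, with the number tested in brackets and a bar at each list's median. The band holds the middle 90% of all tested genes, from -2.19 to 1.31; *Slc7a3* and *Slc1a4* lie above it among the transporters, and *Herpud1* and *Asns* are the highest ATF4 targets.

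Of the 11 leptotene/zygotene markers in the table, 9 were above control in both *Eef1g*-cKO libraries, beside 24.6% of all tested genes. By adjusted p 6 were called increased and 0 decreased, beside 2.87% and 4.97%, and the median log2 fold change was 1.04. Markers of other cell types differed in how they compared between genotypes. All 12 spermatogonial markers were in the table, and their summed level was 1544 and 1812 FPKM in control against 290.5 and 269.5 FPKM in *Eef1g*-cKO. Of them, 10 were below control in both *Eef1g*-cKO libraries, beside 37.7% of all tested genes. By adjusted p 6 were called decreased, beside 4.97%, and 4 and 1 were at 0 reads in the *Eef1g*-cKO libraries. No gene of the Sertoli, Leydig, peritubular or endothelial lists was called by adjusted p. Of 12 Sertoli cell markers 10 were in the table, with 893 and 343 FPKM in control against 470.2 and 373 FPKM in *Eef1g*-cKO, so these sums overlapped. By gene, 6 were below control in both *Eef1g*-cKO libraries and 0 above, beside 37.7% and 24.6% of all tested genes. The median log2 fold change of those tested was -1.15, and *Gata4* had 0 reads in both *Eef1g*-cKO libraries. Leydig cell markers, 4 of 7 in the table, had 8.98 and 10.5 FPKM in control against 2.23 and 2.06 FPKM in *Eef1g*-cKO, with *Cyp11a1* and *Hsd3b1* at 0 reads in the latter. Peritubular markers, 3 of 5 in the table, had 43.8 and 39.4 FPKM in control against 27.7 and 20.8 FPKM in *Eef1g*-cKO. Endothelial markers, 2 of 5 in the table, overlapped, with 2.65 and 0.762 FPKM in control against 2.70 and 1.36 FPKM in *Eef1g*-cKO. Pachytene markers, 4 of 7 in the table, had 417 and 316 FPKM in control against 1483 and 1384 FPKM in *Eef1g*-cKO. Nearly all of that sum was *Hist1h1t*, a testis histone, with 388 and 301 FPKM in control against 1458 and 1354 FPKM in *Eef1g*-cKO. It was the list's only adjusted call, whereas *Piwil1* was lower in both *Eef1g*-cKO libraries and the list's median log2 fold change was 0.01. The part of these cell types in the values of *Slc7a3*, *Slc1a4*, *Slc1a5* and *Slc7a5* was not tested.

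**Figure D5:**
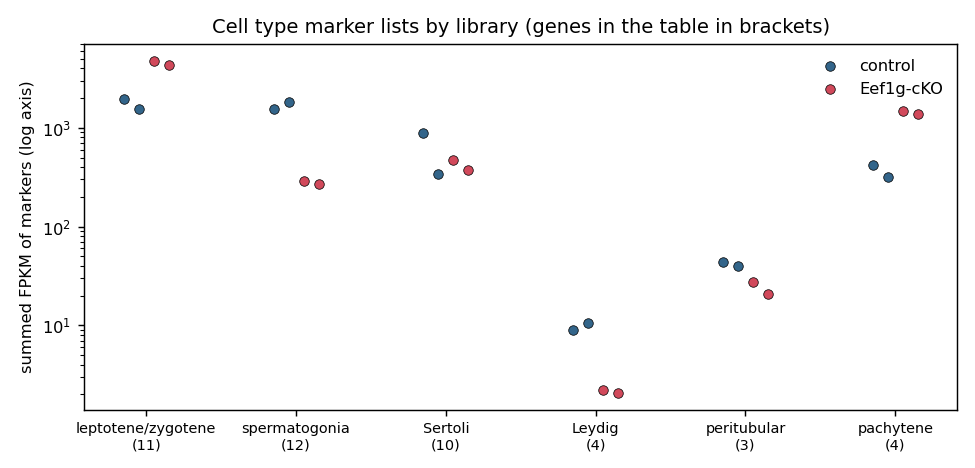
Summed FPKM of cell type marker lists in each library on a log axis, with the number of listed genes found in the table in brackets. Spermatogonial sums are 1544 and 1812 FPKM in control against 290.5 and 269.5 FPKM in *Eef1g*-cKO, and leptotene/zygotene sums are higher in *Eef1g*-cKO.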

How the data were processed

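Ribo-seq was read from 1 deposited table of 11598 genes, with 2 control and 2 *Eef1g*-cKO libraries. The authors computed its FPKM from reads per kilobase of gene length and per 1000000 reads counted on genes. The deposited normalized counts are a signal, each count divided by a size factor of its library. All values (100%) were whole multiples of that step within 0.1 read, so read numbers could be recovered. Columns with the authors' own comparison (log2 fold changes, p-values, adjusted p-values) were not used. The submitters' notes name cutadapt, Bowtie and STAR and the builds mm10 and hg38; the counter and annotation were not given in the sources used here. The methods used RiboMiner.

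The 10475 genes that averaged 1 FPKM or more were compared on log2(FPKM + 1) with limma 3.58.1 (R 4.3.3) with a trended prior variance and Benjamini-Hochberg adjustment over all of them; fold changes understate low genes. edgeR 4.0.16 and DESeq2 1.42.0 were run on the recovered reads. Exact 95% intervals of read ratios cover counting error only. A 2 against 2 permutation test cannot go below p = 0.333 and was not used. The transporters and gene lists were chosen with earlier results of these data known. Named were all transporters, and in each list the genes called by adjusted p with the 2 highest and 2 lowest fold changes among those averaging 5 FPKM or more. *Slc7a2*, *Slc7a8*, *Atf4* and *Eef1g* were also named. Genes that share reads with paralogs or overlapping genes could not be separated, and strand use was not given. Alternatives changed the pseudocount, filter, scaling, model, replicate block and libraries.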

Additional observations from a re-analysis of the deposited data

How the results depend on the processing

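Of 118 alternative values of single transporters, 101 kept their direction and side of the threshold, 9 lost the adjusted call, 1 gained it and 7 turned sign, all 7 of them *Slc3a2*, at -0.02: 0.19 under median centring, 0.0656 under edgeR with TMM, 0.0680 under edgeR with DESeq2 size factors, 0.0630 under edgeR without a filter, 0.0497 under DESeq2, and -0.130 to 0.0882 when a library was left out. The 2 transporters called by adjusted p became 0 with a pseudocount of 0.1, 1 without a filter, 1 at a minimum of 5 FPKM, 0 without a variance trend, and 0 to 3 when a library was left out. The 3 called by unadjusted p became 1 at a minimum of 5 FPKM, where *Slc1a4* and *Slc1a5* are not tested, and 2, all without *Slc1a5*, with a pseudocount of 5, under each edgeR fit, under DESeq2 and when either control library was left out. The median change of 0.14 became 0.35 under median centring and ran from 0.09 to 0.18 when a library was left out; that centring moved the median of all genes by 0.21, and the adjusted calls of all genes from 301 increased and 521 decreased to 521 and 383. Other transporters called, 0, became 1 under median centring, 2 under each edgeR fit and 1 under DESeq2, and stayed at 0 when a library was left out. Sensing genes called, 1, became 0 with a pseudocount of 0.1 and without a trend, 6 under each edgeR fit, 2 with the replicate block, 1 increased and 0 decreased under DESeq2, so that *Lamtor4* was not called, and 0 to 6 when a library was left out. ATF4 genes called, 2 increased and 2 decreased, became 3 and 0 under median centring and under DESeq2; the total of 4 became 1 with a pseudocount of 0.1, 2 without a filter, 0 without a trend, and 0 to 7 when a library was left out. For all genes, limma's adjusted calls were 29 increased and 47 decreased with a pseudocount of 0.1, 0 and 0 without a trend, and 0 and 0 when either control library was left out, whereas edgeR gave 705 and 904 of 8056 genes and DESeq2 502 and 451. The ATF4 calls under edgeR were 3 increased and 2 decreased with TMM, and 3 and 1 in the other edgeR fits. With a pseudocount of 5 and with the replicate block they were 2 increased and 3 decreased. The cause of these moves was not tested. Over all tested genes, the difference between replicates 1 and 2 in control had a correlation of -0.01 with that in *Eef1g*-cKO. Counting error at this depth can hide a shared deviation, so this value cannot decide whether equal numbers mark paired libraries. With the replicate block the adjusted calls were 2 transporters, and 424 increased and 822 decreased of all genes. Depth limits the *Eef1g*-cKO libraries most, where the median gene had 5 and 8 reads.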

Other observations

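*Slc7a3* is the X-linked gene of the set. Among 379 tested X-linked genes the median log2 fold change was 0.06 and 5.54% were called increased by adjusted p, against -0.24 and 2.64% among 9511 autosomal genes; the difference between these groups of genes was not tested.

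Most RPFs lie in coding sequence, so levels were also set per kilobase of the longest coding sequence, an alternative chosen after seeing the data. In control the order was then *Slc3a2* (179.8 reads per coding kilobase and 1000000 reads), *Slc7a5* (119), *Slc38a2* (49.97), *Slc7a1* (44.9), *Slc7a6* (44.5), *Slc1a5* (12.4), *Slc1a4* (2.52) and *Slc7a3* (0.109), with *Slc7a1* and *Slc7a6* overlapping. In *Eef1g*-cKO it was *Slc3a2* (177), *Slc7a6* (71.3), *Slc7a5* (69.6), *Slc38a2* (61.8), *Slc7a1* (36.5), *Slc7a3* (25.4), *Slc1a4* (21.8) and *Slc1a5* (3.55). On this scale *Slc38a2* stood at the level of *Slc7a5* in *Eef1g*-cKO, and *Slc7a3* stood below *Slc7a1* rather than above it.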
